A study of Danio rerio with 15 samples.

Results

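Of the 85 genes of this group, named after contractile filament proteins of muscle and non-muscle cells, 1 was called changed in zebrafish larvae after 4 hours in tris(4-chlorophenyl)methanol (TCPMOH). That one encodes a ubiquitin ligase rather than a filament protein. Of all 19257 tested genes 2.68% were called. The group holds every gene of the authors' deposited table with a base mean of at least 50 whose symbol starts with myh, myl, tnni, tnnt, tnnc, actn, actc1, acta1, acta2 or mybpc, or with tpm and then a digit or the letter a. Base mean is the mean normalized read count over the libraries in the authors' fit. Of 88 genes with such names among the 36351 in the table, 3 lay below that base mean. The 85 were sorted by name and textbook knowledge into 24 fast skeletal, 8 slow skeletal, 14 cardiac, 14 striated genes not assigned to 1 muscle type, 15 smooth muscle or non-muscle genes and 10 regulators (kinases and ubiquitin ligases whose names begin alike). The first 5 classes are called filament genes here, 75 in all.

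Wild-type AB zebrafish were exposed in the water from 96 to 100 hours post fertilization to 50 nM TCPMOH, to tris(4-chlorophenyl)methane (TCPM) at the same 50 nM, or, as control, to the solvent dimethyl sulfoxide (DMSO) at 0.01% v/v. The series asked how short exposure to either compound alters gene expression, and each of the 3 groups has 5 libraries of polyadenylated RNA from pools of 8 to 10 whole animals. Only TCPMOH is set against DMSO below, and TCPM was not analysed here. Since the animals were taken whole, fewer muscle cells and less RNA per muscle cell cannot be told apart. The table holds 1 fold change per gene and no value per library, so the spread between pools is seen only through each gene's standard error (SE). The labels do not say which pools share one of the 3 experimental replicates, so any p covers only the variation among these pools, which may be partly technical. The header does not name the numerator of the fold change. A negative value is read here as lower with TCPMOH, and every direction below would swap under the other reading.

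Striated muscle contracts when myosin heads of the thick filament pull on actin of the thin filament. Each myosin molecule has heavy chains with motor heads and pairs of essential and regulatory light chains. On the thin filament, tropomyosin covers the myosin binding sites on actin until calcium binds troponin C, and troponins I and T pass that signal on. Alpha-actinin ties the thin filaments together at the Z-disc, and myosin binding protein C sits on the thick filament. Fast fibers, slow fibers, heart and smooth muscle use different paralogs of most of these proteins. In a fish larva of this age the trunk is mostly fast muscle, with a superficial layer of slow fibers.

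A gene counts as called where its Benjamini-Hochberg adjusted p from the authors' DESeq2 Wald test lies under 0.05. Of 19257 tested genes 2.68% were called by the authors' deposited table, and 1.92% were called lower. These were 370 lower and 146 higher genes, against 217 lower and 355 higher after the shift to equal sums described below. Of the 85 genes of the group 1 was called lower and 0 higher, and of the 75 filament genes 0 were called. In sets this small, such counts lie near the 2.68% of all tested genes. The same holds for the counts of 0 given for single classes below. At an unadjusted p under 0.05 stood 6 of the 85 genes, or 7.06%, beside 13.0% of all tested genes. They were 3 of 75 filament genes (4.00%) and 3 of 10 regulators, a division by protein role that was made after values were seen. The lowest filament gene was tnni4a, a troponin I gene, at a log2 fold change of -0.28 (SE 0.111; adjusted p = 0.187 by DESeq2) in the authors' deposited table. The highest was tnnt2c, a cardiac troponin T gene, at 0.28 (SE 0.122; adjusted p = 0.247 by DESeq2) in the authors' deposited table. The third was myl6, a smooth and non-muscle light chain gene, at -0.15 (SE 0.0714; adjusted p = 0.329 by DESeq2) in the authors' deposited table. Base means of tnni4a and tnnt2c were only 78.1 and 102 normalized counts in the authors' deposited table.

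The SEs set the range of fold changes these pools allow. Across the filament genes the SE ran from 0.0449 to 0.122 log2 units in the authors' deposited table. Its median was 0.0846, against 0.0907 for all tested genes, whose base means were lower. At like base means the medians were 0.0940 against 0.0959 for other genes between 50 and 1000. They were 0.0764 against 0.0706 between 1000 and 10000, and 0.0879 against 0.0887 from 10000 up. The 95% interval of the log2 fold change, taken as the estimate plus or minus 1.96 SE, lay within 0.5 of 0 for 73 of the 75 filament genes and within 0.25 for 46 of them. The 2 exceptions at 0.5 were tnni4a, with an interval from -0.50 to -0.06, and tnnt2c, with one from 0.04 to 0.52. Intervals of all 24 fast genes lay between -0.33 and 0.24, those of the 8 slow genes between -0.20 and 0.31, and those of the 15 smooth and non-muscle genes between -0.29 and 0.31. The deposited fold changes appear to be shrunken toward 0. An SE alone does not fix the amount of shrinkage, and the solution with less shrinkage was assumed for every gene. For tnnt2c, whose SE of 0.122 lies near the largest SE of 0.124, the other solution would lie further from 0. With that shrinkage undone, the interval of tnni4a ran from -0.69 to -0.09 and that of tnnt2c from 0.07 to 0.87, and the cardiac heavy chain gene myh7ba passed 0.5 as well, at 0.56. Of the 75 filament genes 72 then kept an interval within 0.5 and 32 one within 0.25. Over the whole group, 80 of the 85 genes kept an interval within 0.5, against 83 as deposited, and 34 one within 0.25, against 49.

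**Figure D1:**
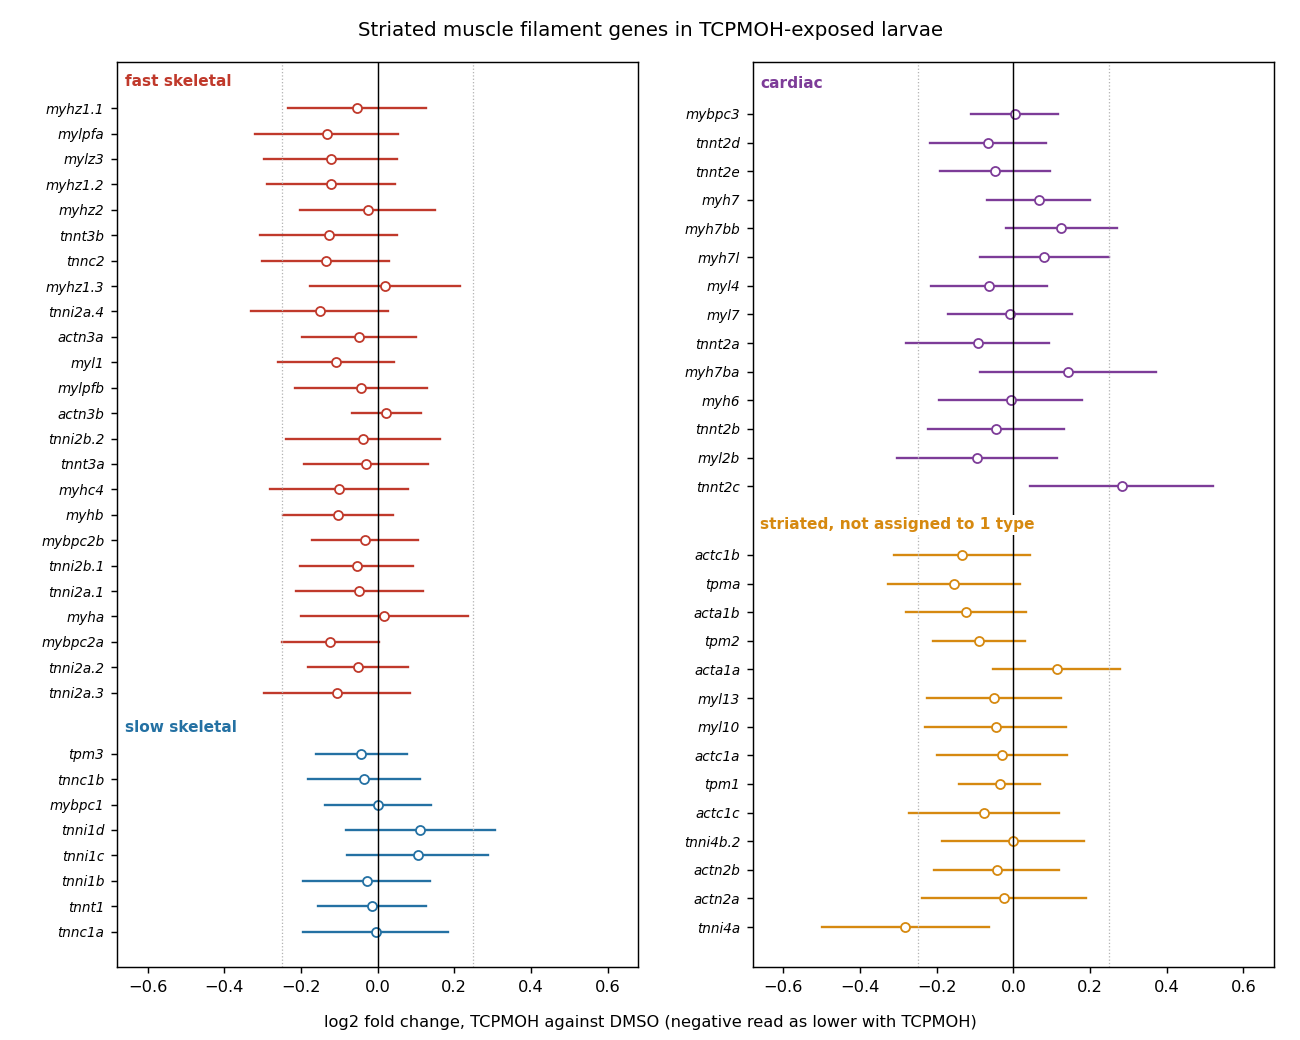
Log2 fold change (x axis, log2 units) of each striated filament gene, with its 95% interval (1.96 SE) as a line, sorted within each class by base mean from the top. Open circles are genes that were not called, which is every gene shown. Fast genes at the top of their class lie mostly between -0.15 and 0, and slow genes scatter around 0.

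The fast skeletal heavy chain genes, which encode the motor of fast fibers, gave 0 calls. Of these, 6 lie on chromosome 5 within 1 stretch from 32206378 to 32309129 as deposited. By base mean they began with myhz1.1 (305330 normalized counts), at a log2 fold change of -0.05 (SE 0.0921) per the authors' deposited table. For the rest of that cluster the authors' deposited table gives myhz1.2 at -0.12 (SE 0.0849), myhz1.3 at 0.02 (SE 0.0995), myhz2 at -0.03 (SE 0.0898), myhc4 at -0.10 (SE 0.0916) and myha at 0.02 (SE 0.111). The seventh fast heavy chain gene, myhb on chromosome 6, stood at -0.10 (SE 0.0737) per the authors' deposited table. Of these 7 heavy chain genes 5 were negative with a median of -0.05, and after the shift to equal sums 4 were, with a median of -0.01. Before that shift, other tested genes with a base mean of at least 10000 were negative in 81.3% of cases. These heavy chain genes are near copies of one another, so how their reads were divided is uncertain. The spans of myhz1.1, myhz1.2 and myhz1.3 also overlap a row named kat5b on the same strand.

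Fast light chain genes were negative in 4 of 4 cases, again with no call. The regulatory light chain genes mylpfa and mylpfb stood at -0.13 (SE 0.0947; adjusted p = 0.584 by DESeq2) and -0.04 (SE 0.0878) per the authors' deposited table. The essential light chain genes mylz3 and myl1 stood at -0.12 (SE 0.0884) and -0.11 (SE 0.0775) per the authors' deposited table. Fast troponin genes were negative in 9 of 9 cases, with 0 called. The calcium sensor gene tnnc2 stood at -0.14 (SE 0.0851), the tropomyosin-binding troponin T gene tnnt3b at -0.13 (SE 0.0912) and the inhibitory troponin I gene tnni2a.4 at -0.15 (SE 0.0911; adjusted p = 0.495 by DESeq2) in the authors' deposited table. Their paralogs of lower base mean were nearer 0, with tnnt3a at -0.03 (SE 0.0820) and tnni2b.2 at -0.04 (SE 0.102) per the authors' deposited table. The remaining troponin I copies tnni2a.1, tnni2a.2 and tnni2b.1 lay at -0.05 each and tnni2a.3 at -0.11 in the authors' deposited table. After the shift to equal sums mylpfb, tnnt3a and tnni2b.2 were positive, at 0.01, 0.02 and 0.01. The others stayed negative, with tnni2a.1, tnni2a.2 and tnni2b.1 at -0.0003, -0.004 and -0.007. Values this near 0 do not settle a sign. Before that shift 81.3% of other tested genes with a base mean of at least 10000 were negative, and 55.0% of those between 1000 and 10000. Differences between paralogs were not tested, since that needs values per library.

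Fast genes of the thick filament's accessory protein and of the Z-disc had values in the same small range, and 0 were called. The myosin binding protein C genes mybpc2a and mybpc2b stood at -0.12 (SE 0.0644; adjusted p = 0.397 by DESeq2) and -0.03 (SE 0.0709) per the authors' deposited table. The alpha-actinin genes actn3a and actn3b stood at -0.05 (SE 0.0759) and 0.02 (SE 0.0457) per the authors' deposited table, the second with a narrow 95% interval from -0.07 to 0.11. Over the 24 fast genes the median log2 fold change was -0.05 (-3.67% as a level), and 0 had an unadjusted p under 0.05. Negative values were found for 21 (16 after the shift to equal sums), beside 50.6% (34.7%) of all tested genes.

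Of the 8 slow skeletal genes 5 were negative with a median of -0.01, and after the shift to equal sums 0 were negative with a median of 0.04. The same shift took all tested genes from 50.6% to 34.7% negative, and their median from -0.002 to 0.05. None was called, and 0 had an unadjusted p under 0.05. The troponin C gene tnnc1b stood at -0.04 (SE 0.0744), the troponin T gene tnnt1 at -0.01 (SE 0.0718), and the slow binding protein gene mybpc1 at 0.00 (SE 0.0705) per the authors' deposited table. The tropomyosin gene tpm3, a slow fiber form in mammals, stood at -0.04 (SE 0.0607) per the authors' deposited table. Placed in this class by its use in mammals alone, tpm3 had a base mean of 11832.5 normalized counts, against 18045 summed over the class. Troponin I genes split, with tnni1c at 0.10 (SE 0.0940), tnni1d at 0.11 (SE 0.0989) and tnni1b at -0.03 (SE 0.0846) per the authors' deposited table. The troponin C gene tnnc1a, counted here as slow by its deposited name although it is known in zebrafish for its role in the heart, stood at -0.01 (SE 0.0969) per the authors' deposited table. Without tnnc1a 4 of 7 slow genes were negative (median -0.01), and with it 9 of 15 cardiac genes were (median -0.01). Slow myosin heavy chains carry names outside the rule. In the authors' deposited table smyhc1 stood at 0.08 (SE 0.0900), smyhc2 at 0.00 (SE 0.0642) and smyhc3 at -0.10 (SE 0.0939), with DESeq2 adjusted p from 0.698 to 0.999.

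Cardiac genes went both ways by role and none was called. The class rests on names and textbook knowledge, and whole animals do not show which muscle the reads came from. All 3 light chain genes were negative in the authors' deposited table, with myl7, the regulatory chain of the embryonic heart, at -0.01 (SE 0.0825), the atrial chain gene myl4 at -0.06 (SE 0.0774) and myl2b at -0.09 (SE 0.106). Of the 5 heavy chain genes 4 were positive. In the authors' deposited table myh7, the ventricular heavy chain, stood at 0.07 (SE 0.0683), its neighbour myh7l at 0.08 (SE 0.0861), myh7ba at 0.14 (SE 0.117), myh7bb at 0.13 (SE 0.0741; adjusted p = 0.481 by DESeq2) and the atrial myh6 at -0.01 (SE 0.0954). The cardiac binding protein gene mybpc3 stood at 0.00 (SE 0.0579) per the authors' deposited table, with a 95% interval from -0.11 to 0.12. Of the 5 troponin T genes named cardiac, 4 were negative, among them tnnt2a, required for the heartbeat in zebrafish, at -0.09 (SE 0.0952) per the authors' deposited table. By the authors' deposited table tnnt2b stood at -0.04, tnnt2d at -0.07 and tnnt2e at -0.05. Over the 14 cardiac genes 8 were negative with a median of -0.01, and after the shift to equal sums 5 were, with a median of 0.04. Shares over all tested genes were 50.6% before and 34.7% after that shift.

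The striated genes not assigned to 1 muscle type included the row with the highest base mean of the whole table, actc1b. This alpha-actin gene, active in heart and skeletal muscle of the larva, had a base mean of 514369 normalized counts and stood at -0.13 (SE 0.0902; adjusted p = 0.556 by DESeq2) in the authors' deposited table, at 117024 to 125091 on chromosome 17. Other actin genes in the authors' deposited table were actc1a at -0.03 (SE 0.0862), actc1c at -0.08, acta1b at -0.12 (SE 0.0801) and acta1a, the only positive one, at 0.11 (SE 0.0840). The coding sequences of these actins are nearly identical, so reads could have been shared among them. Tropomyosin was negative in 3 of 3 genes of this class, with tpma at -0.16 (SE 0.0881; adjusted p = 0.450 by DESeq2), tpm2 at -0.09 (SE 0.0611) and tpm1 at -0.04 (SE 0.0540) per the authors' deposited table. The alpha-actinin genes actn2a and actn2b stood at -0.02 (SE 0.109) and -0.04 (SE 0.0831), and the light chain genes myl10 and myl13 at -0.05 each (SE 0.0939 and 0.0891) in the authors' deposited table. Troponin I gene tnni4b.2 stood at 0.00 (SE 0.0946) per the authors' deposited table. Of the 14 genes 13 were negative, with a median of -0.05, and 7 were negative after the shift to equal sums. Shares over all tested genes were 50.6% and, after the shift, 34.7%.

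Smooth muscle and non-muscle filaments power gut and vessel walls, cell division and cell shape. Of their 15 genes 11 were negative and the median was -0.06, with 0 called. After the shift to equal sums 10 were negative, with a median of -0.02. All 5 light chain genes were negative in the authors' deposited table, namely myl6 (given above), myl9a at -0.13 (SE 0.0743; adjusted p = 0.482 by DESeq2), myl9b at -0.06 (SE 0.0599), myl12.1 at -0.09 (SE 0.0716) and myl12.2 at -0.08 (SE 0.0888). Their heavy chain partners split in the authors' deposited table, with the non-muscle myh9a at 0.15 (SE 0.0814; adjusted p = 0.424 by DESeq2), its paralog myh9b at -0.10 (SE 0.0957), myh10 at 0.00 (SE 0.0617), myh14 at 0.07 (SE 0.108) and the smooth muscle myh11a at 0.02 (SE 0.103). Smooth muscle actin acta2 stood at -0.06 (SE 0.0660) per the authors' deposited table. The non-muscle alpha-actinin genes actn1 and actn4 stood at 0.09 (SE 0.0845) and -0.08 (SE 0.0449; adjusted p = 0.423 by DESeq2), and the tropomyosin genes tpm4a and tpm4b at -0.08 (SE 0.0632) and -0.06 (SE 0.0755) per the authors' deposited table. Across classes all 14 light chain genes and all 6 tropomyosin genes were negative, with medians of -0.09 and -0.07. Of 17 heavy chain genes 8 were negative, with a median of 0.02. The share of negative values over all tested genes was 50.6% as deposited. This grouping by role was not planned, and differences between roles were not tested. A shift of all genes by 0.048 log2 units equalizes the group sums worked out from base means and the deposited fold changes. Those fold changes appear shrunken toward 0, and a shift with shrinkage undone was not computed. After the shift of 0.048, 11 of 14 light chain, 4 of 6 tropomyosin and 5 of 17 heavy chain genes were negative. Of all tested genes 34.7% were negative after that shift.

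**Figure D2:**
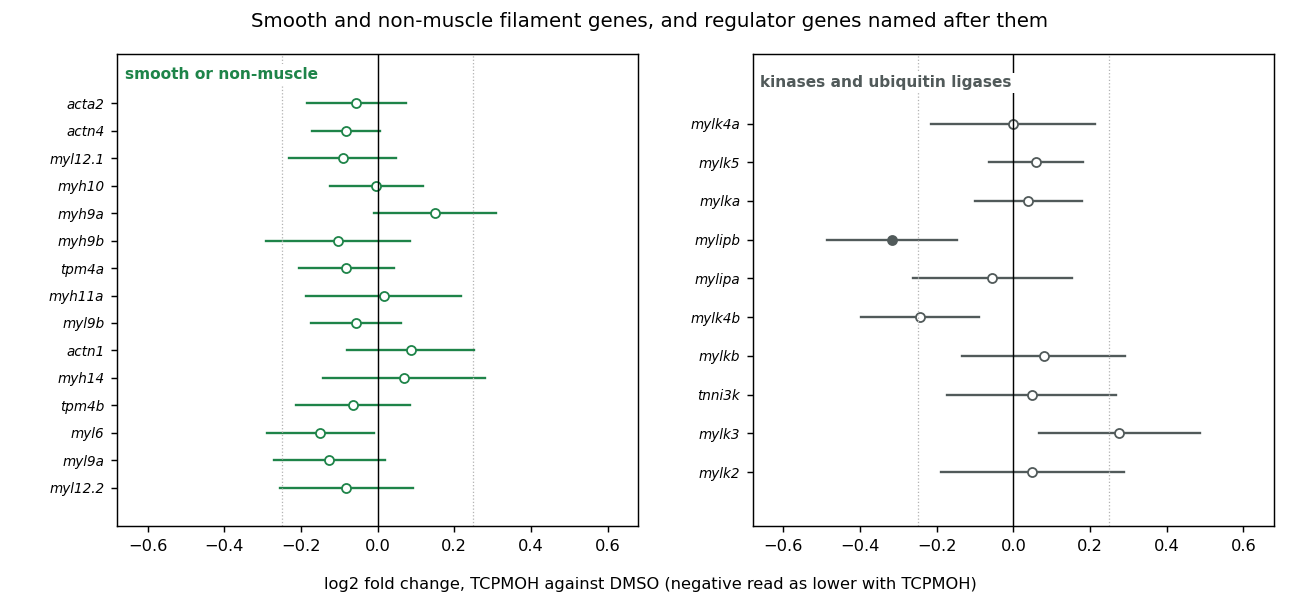
Log2 fold change (x axis, log2 units) with its 95% interval (1.96 SE) for smooth and non-muscle filament genes (left) and for the regulators (right), sorted by base mean from the top. The filled circle is mylipb, the 1 gene called, at -0.32, and open circles are genes that were not called.

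Regulators held the 1 call. The gene mylipb, on chromosome 16 from 25535993 to 25548738, was lower at -0.32 (SE 0.0867; adjusted p = 0.0147 by DESeq2), a level that fell by 19.8%, at a base mean of 702 normalized counts in the authors' deposited table. Its product is a ubiquitin ligase named for its binding to the myosin regulatory light chain, whose mammalian counterpart marks lipoprotein receptors for degradation. That call was lost when all fold changes were shifted to equal sums of the groups (adjusted p = 0.0564, recomputed from the DESeq2 statistics) and when Wald statistics were divided by their own spread (adjusted p = 0.288). The paralog mylipa stood at -0.05 (SE 0.105; adjusted p = 0.870 by DESeq2) in the authors' deposited table.

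Among the 7 myosin light chain kinase genes, whose products phosphorylate regulatory light chains or are named after that activity, 0 were called. The nearest was mylk4b at -0.24 (SE 0.0788; adjusted p = 0.0666 by DESeq2) in the authors' deposited table. Its paralog mylk4a stood at 0.00 (SE 0.109) per the authors' deposited table. After removal of the trend of fold change on gene span mylk4b passed, with an adjusted p of 0.0362 recomputed from the DESeq2 statistics. The cardiac kinase gene mylk3 stood at 0.28 (SE 0.107; adjusted p = 0.173 by DESeq2) at a base mean of 106 normalized counts in the authors' deposited table. The others were mylk5 (0.06), mylka (0.04), mylkb (0.08) and mylk2 (0.05) in the authors' deposited table, and the cardiac kinase gene tnni3k, which binds troponin I, stood at 0.05 (SE 0.112). In this class 3 of 10 genes had an unadjusted p under 0.05, beside 13.0% of all tested genes, and the class was set apart after its values were seen.

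**Figure D3:**
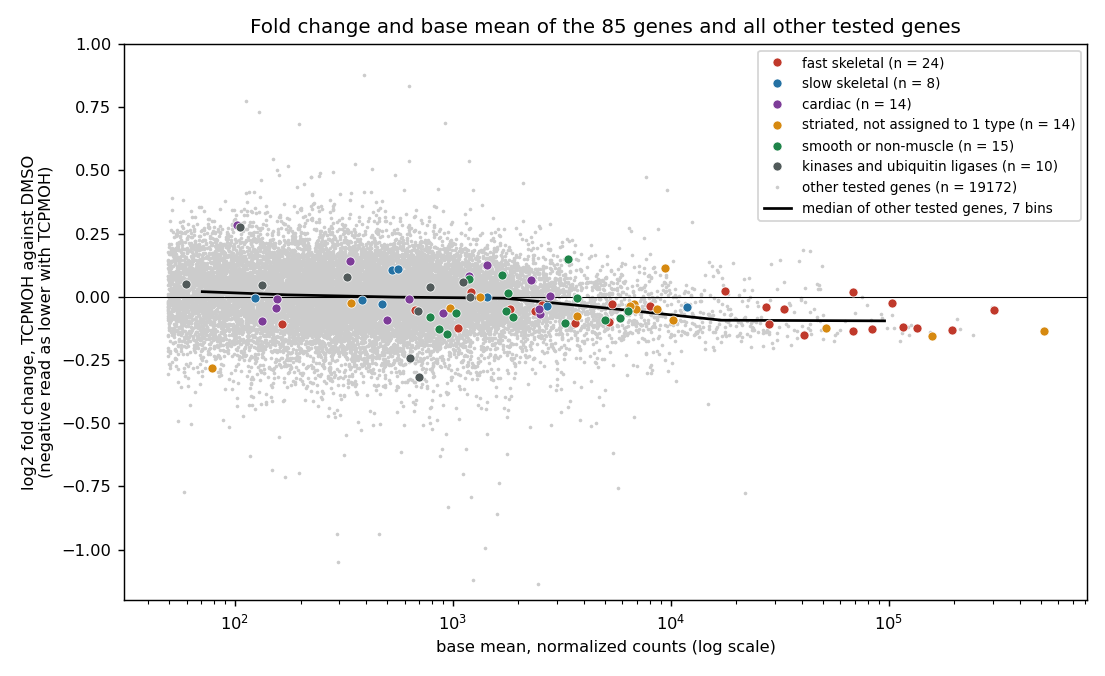
Log2 fold change (y axis, log2 units) against base mean (x axis, normalized counts, log scale) for the 85 genes, coloured by class, and for all other tested genes (grey), with the median of the latter in 7 bins of base mean (line). Most coloured points of high base mean lie below 0, near the line, which reaches -0.10 in the last bin.

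The genes of highest base mean leaned negative, and so did other genes read as deeply. Base means reflect transcript length as well as transcript number, so they are used here only to compare genes of like read depth. Of the 18 filament genes with a base mean of at least 10000, 16 were negative and their median was -0.11. Among the 262 other tested genes at that depth 213 (81.3%) were negative, with a median of -0.09. These 262 are not free of muscle genes, since pvalb1, atp2a1, ckma and smyhc1, outside the name rule, are among them. Between 1000 and 10000, 25 of 36 filament genes (69.4%) were negative with a median of -0.04, beside 55.0% of 4063 other genes with a median of -0.01. Between 50 and 1000, 17 of 21 filament genes were negative with a median of -0.04, beside 48.7% of 14784 other genes with a median of 0.00. Over all tested genes 50.6% were negative, and over the 85 genes of the group 62 were. Across the 75 filament genes Spearman's rho between fold change and base mean was -0.31, and across the 19257 tested genes it was -0.11. Between fold change and gene span rho was 0.09 across the filament genes and 0.26 across all tested genes. The deeply read other genes had a median span of 8683 bases, against 19648 for all tested genes. Depth and span were not separated. These are descriptions across genes measured in the same libraries, and genes are not independent replicates.

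**Figure D4:**
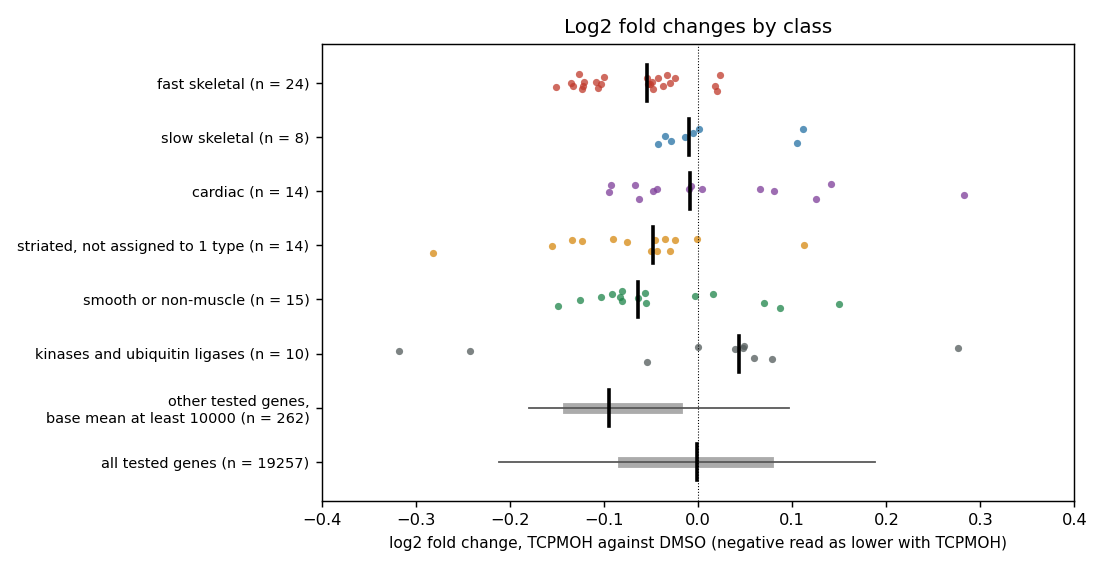
Log2 fold change (x axis, log2 units) of each gene by class (points), with class medians as black bars. For the 262 other tested genes of base mean at least 10000 and for all 19257 tested genes, thick bars span the middle 50% and thin lines the 5th to 95th percentile. The median of all 24 fast genes (-0.05) lies between those of the deeply read other genes (-0.09) and of all tested genes (0.00). The 13 fast genes of base mean at least 10000, not shown apart, had a median of -0.11.

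Filament genes take up a large part of the reads in a whole larva. Of these 75 genes 0 were called, beside 2.68% of all tested genes. The 85 genes held 8.52% of all normalized counts in the authors' deposited table, of which fast genes held 5.06% and actc1b with the other unassigned striated genes 3.14%. Cardiac and slow genes held 0.0629% and 0.0727%. These are shares of the genes inside the name rule only. The slow heavy chain gene smyhc1, outside it, had a base mean of 22780 normalized counts, against 18045 summed over the slow class. Summed values of each group can be worked out from base means and fold changes. That holds if both groups enter the base mean equally, which no source used here states. It also takes the deposited fold changes as they are, although they appear shrunken toward 0. On that footing the 85 genes accounted for 17.8% of the net difference between the summed counts of TCPMOH and DMSO libraries, with 9.06% from fast genes and 8.54% from the unassigned striated genes. A similar lean was found outside the group, among genes that include muscle genes beyond the name rule such as pvalb1 and atp2a1. Other tested genes with a base mean of at least 10000 held 31.8% of all normalized counts. Their mean log2 fold change weighted by base mean was -0.09, against -0.10 for the 85 genes. Equalizing the sums needed a shift of 0.048 log2 units over all genes and of 0.043 without these 85. After the first shift 41 of the 85 genes were negative instead of 62, and the medians were -0.01 for fast genes, 0.04 for slow and cardiac genes, 0.00 for unassigned striated genes and -0.02 for smooth and non-muscle genes. Of all tested genes 34.7% were then negative with a median of 0.05, against 50.6% before the shift. A constant shift leaves the distance between the medians of the group and of all tested genes as it was. The part of library scaling in the lean of deeply read genes was not tested.

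Other genes of striated muscle gave 1 call. A list of 102 genes for calcium handling, energy supply, Z-disc and membrane proteins, myosin chaperones and muscle transcription factors was taken beside the filament genes, and 90 of them had an adjusted p. Of these 90, 1 was higher and 0 lower (1.11% called, beside 2.68% of all tested genes), 6 had an unadjusted p under 0.05 (6.67%, beside 13.0%), and the median log2 fold change was 0.00 with 46 negative. The gene called was mef2cb, a MADS-box transcription factor of muscle and heart development, on chromosome 5, higher at 0.23 (SE 0.0550; adjusted p = 0.00354 by DESeq2) in the authors' deposited table. Its adjusted p ranged from 1.26e-04 to 0.145 over the alternatives, and the call was lost with Wald statistics divided by their own spread. Its paralog mef2ca stood at -0.01 (SE 0.0651) per the authors' deposited table.

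Next by p in that list came myog, the transcription factor that drives myoblast differentiation, at 0.18 (SE 0.0702; adjusted p = 0.182 by DESeq2) in the authors' deposited table. It passed after the shift to equal sums, with an adjusted p of 0.0456 recomputed from the DESeq2 statistics. Also in the authors' deposited table were the Z-disc gene myoz2b (-0.17), the oxygen-binding mb (-0.27), the sarcoglycan gene sgcg (0.14), the homeobox gene six1a (0.18), the protease gene capn3a (0.16) and the intermediate filament gene desma (-0.09), with DESeq2 adjusted p from 0.210 to 0.447. Genes for myosin folding and assembly in the authors' deposited table were unc45b at 0.03 (SE 0.106), hsp90aa1.1 at -0.02 (SE 0.119), smyd1b at 0.12 (SE 0.0861) and smyd1a at -0.15 (SE 0.106), with 0 called. Among the parvalbumin, calcium pump and creatine kinase genes of the list with a base mean of at least 10000, the authors' deposited table gives pvalb1 at -0.13 (SE 0.0923), pvalb2 at -0.14 (SE 0.101), pvalb4 at -0.03 (SE 0.0893), atp2a1 at -0.09 (SE 0.0749), atp2a1l at -0.07 (SE 0.124), ckma at -0.14 (SE 0.104) and ckmb at -0.15 (SE 0.0962), with 0 called.

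Of 29 listed markers of the tissues of a whole larva 28 were found, 25 of them at a base mean of at least 50. Of those 25, 1 was called, beside 2.68% of all tested genes. That was apoa4a of the intestine, lower at -0.41 (SE 0.113; adjusted p = 0.0162 by DESeq2) in the authors' deposited table. The other intestine marker, fabp2, stood at -0.33 (SE 0.105; adjusted p = 0.0563 by DESeq2) in the authors' deposited table. Median log2 fold changes were -0.37 for the 2 intestine markers, -0.17 for 3 skin markers, and -0.11 each for 2 liver and 4 fast muscle markers. They were -0.07 for 4 smooth muscle, -0.04 for 3 neuron and 0.08 for 3 slow muscle markers, and 0.01 for the 7 heart markers found. Only 4 of those 7 had a base mean of at least 50. The symbol not found was vmhc. The ventricular heavy chain gene myh7, at 0.07 with a base mean of 2285 normalized counts, was not counted as a marker. The group itself holds the fast markers mylpfa and myhz2, the smooth muscle markers acta2 and myh11a and the heart marker myl7. The skin keratin gene krt4 stood at -0.17 (SE 0.0730; adjusted p = 0.228 by DESeq2) at a base mean of 113174 normalized counts in the authors' deposited table. Just inside the base mean limit of the group were mylk2 (59.3 normalized counts) and tnni4a (78.1), and just outside were myh11b (45.2), tnni4b.1 (19.2) and tnni1a in the authors' deposited table.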

How the data were processed

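The series holds messenger RNA sequencing of 15 libraries, and 1 table was used, the authors' own DESeq2 result for TCPMOH and DMSO libraries. Per the submitters' processing notes, the tools were FastQC, cutadapt, STAR, featureCounts and DESeq2, with no version. Per the file headers, symbols follow a V4.3.2 gene model file, with Ensembl 99 identifiers beside them. No genome build is stated in what was used here, and coordinates are printed as deposited. The deposited base mean is a signal, the mean of normalized counts. The deposited fold change and its SE are log2 values. The Wald score that the authors deposited equals the fold change divided by its SE, and the deposited p-values are two-sided, adjusted by Benjamini-Hochberg over 19257 genes (recomputed to within 5.17e-06). Whether TCPM libraries entered that fit is not stated in what was used here. Depth per library is unknown here, and 0 columns were left out as unassigned.

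No fit was made here: calls are those of the authors' DESeq2 Wald test across all genes. Leaving out a library, a replicate block and count models were not run, since they need values for each library. Computed here were intervals, class counts and medians, sums, and the alternatives (shift to equal sums, median centring, Wald statistics divided by their robust spread of 1.30, filters at base means of 0 and 500, thresholds of 0.01 and 0.1, removal of the span trend, member limits of 20 and 200, and shrinkage undone for a normal prior with a standard deviation of 0.248 inferred from the largest SE of 0.124). The functions for adjustment, shift, spread, span trend and shrinkage were tested on simulated data. The shift without the members, the undone shrinkage, the omission of overlapping members and the counting of tnnc1a as cardiac were added after seeing the data. Counts of members below 0 under the alternatives, counts by protein role across classes and the interval counts were not planned either. The same holds for the alternatives for the other striated muscle genes. Genes named were those called, the 5 of highest base mean in each class, the 5 with the highest and lowest Wald statistic, and up to 8 of the pathway list by p. The regulators were set apart as a class, and the remaining members, chaperones, slow heavy chains and fast fiber genes were named for their role, all after values were seen. The members and lists were chosen with earlier results of these data known. Of the 85 members 84 have an Ensembl identifier, and the symbols used are those of the table. Spans of 20 members overlap another row on the same strand, and no source used here states whether counting used strand. Software was matplotlib 3.10.9, scipy 1.17.1, numpy 2.4.6 and pandas 2.3.3 under Python 3.11.15.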

Additional observations from a re-analysis of the deposited data

How the results depend on the processing

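No paired analysis was possible because the table holds no values per library, and for the same reason no library could be left out. The count of 1 called member was the same after median centring, without a filter on base means, with a filter at 500, and with member limits of 20 and 200. It was 0 after the shift to equal sums (also when that shift left out the members), 0 under the empirical null, in which Wald statistics are divided by their own spread, 0 at an adjusted p under 0.01, and 2 at an adjusted p under 0.1 or with the span trend removed, the second gene being mylk4b. Of members with a fold change below 0 there were 62 as deposited and 41 after the shift to equal sums. Of all tested genes 50.6% were negative as deposited and 34.7% after that shift. The call count of 1 among other striated muscle genes was 2 after that shift (mef2cb and myog) and 0 under the empirical null. Each class median moved by less than the median SE of its members under every alternative run. For the constant shifts this was fixed in advance, since the median SE of every class exceeds 0.048. The sign of these small medians turned for slow and cardiac genes after the shift, for slow genes also with the span trend removed, for cardiac genes and regulators in a mean weighted by base mean, and for regulators with a member limit of 200. With members weighted by base mean the unassigned striated mean was -0.13, against a median of -0.05. Of 820 pairs of a gene and an alternative, 809 gave the same call and a value within 1 SE. Filters, thresholds and the empirical null leave the fold change as deposited, so its value could not move there. The constant shifts, of at most 0.048 log2 units, lie below the SE of most genes. The count of 809 is therefore no measure of how stable the fold changes are. The adjusted p of mylipb ranged from 0.0102 to 0.288. Precision was lowest for mylk2 (SE 0.122) and tnnt2c (SE 0.122), whose base means were 59.3 and 102 normalized counts.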

Other observations

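Unconventional myosins, single-headed or cargo-moving motors whose symbols start with myo and a digit, lie outside the named group and were looked at after their values were seen. Of 30 tested genes 1 was called higher and 1 lower by DESeq2 in the authors' deposited table, or 6.67% beside 2.68% of all tested genes. An unadjusted p under 0.05 was found for 7 of the 30 (23.3%), beside 13.0% of all tested genes. No test was made of either share, since the set was chosen after its values were seen. The gene myo7aa, a motor of hair cells and retinal pigment epithelium, was higher at 0.30 (SE 0.0816; adjusted p = 0.0137 by DESeq2) in the authors' deposited table. The gene myo3a, a motor of photoreceptors and hair cells, was lower at -0.32 (SE 0.0925; adjusted p = 0.0248 by DESeq2) in the authors' deposited table. Their median was 0.05, and 20 of 30 were positive.

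A pair of cardiac light chain genes fall outside the name rule by their spelling. In the authors' deposited table cmlc1 stood at -0.04 (SE 0.101; adjusted p = 0.894 by DESeq2) and MYL2 at -0.11 (SE 0.0807; adjusted p = 0.604 by DESeq2).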
